A study of Mus musculus with 6 samples.

Results

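A set of 9 genes of the follicular helper T cell (Tfh) programme was followed in cultured T helper 17 (Th17) cells of mice, chosen by name from the deposited table of 54532 genes. They were the transcription factor genes Bcl6, Pou2af1, Ascl2 and Tox2, the signalling adaptor gene Sh2d1a, and the surface protein genes Slamf6, Cd200, Btla and Icos. All 9 were found in the table. The comparison was between 3 libraries from wild-type (WT) C57BL/6 cells and 3 libraries from GOT1-/- cells. GOT1 is an aspartate transaminase of the cytosol and part of the malate-aspartate shuttle, and its gene was deleted in T cells only. The sources used here do not name the driver of that deletion or the deleted part of the gene. Both groups began as naive CD4+ cells (CD25-, CD62L+, CD44-) sorted from male or female mice of 6 to 10 weeks, and both were activated through CD3 and CD28. Both were then cultured with TGF-beta at 2.5 ng/ml, with 10 ng/ml of each of the cytokines IL-23, IL-6 and IL-1beta, and with 2 ug/ml of each of the antibodies that block IL-4 and IFN-gamma. RNA was taken on day 4. The question was how loss of GOT1 changes the transcripts of these cells, here those of the Tfh genes.

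Tfh cells are the CD4 T cells that enter B cell follicles and help B cells in germinal centres. BCL6, a zinc finger repressor, is the regulator that the lineage depends on, and PRDM1 (BLIMP1) opposes it. ICOS provides costimulation, and the adaptor SAP, encoded by Sh2d1a, couples SLAM receptors such as SLAMF6 to the kinase FYN in contacts with B cells. Th17 and Tfh cells share inputs such as IL-6, STAT3 and IL-21, so several of these genes are also expressed in Th17 cells.

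In GOT1-/- cells the regulator genes Bcl6 and Pou2af1 fell 2.90-fold and 2.99-fold, and Tox2, Slamf6 and Btla were also lower. Sh2d1a and Cd200 were higher, Icos was not called, and Ascl2 was too rare to be tested. Of the 8 members tested, 5 were called lower and 2 higher (edgeR's quasi-likelihood test, Benjamini-Hochberg adjusted p under 0.05 over 12873 genes). Of all genes tested, 21.0% were called lower and 22.9% higher. After the correction for gene length, 19.6% were called lower and 21.0% higher, and after that for length and GC content, 20.2% and 21.5%. Without WT replicate 1, 2 or 3, 18.9%, 17.7% and 18.6% were called lower and 19.0%, 18.8% and 19.0% higher. Without GOT1-/- replicate 1, 2 or 3, 21.2%, 16.4% and 19.3% were called lower and 22.5%, 17.3% and 20.5% higher. These shares are the background for the counts and calls of members, and of the lists of other genes below, under the same settings. The median log2 fold change of the 8 tested members was -0.85, against 0.01 for all genes tested. In all 9 members the 3 GOT1-/- libraries lay on one side of the 3 WT libraries, 6 lower and 3 higher. The 3 include Ascl2, which is not among the genes tested. Of all genes tested, 25.8% were separated in that way downwards and 27.7% upwards. With 3 libraries against 3, an exact two-sided permutation test of a single gene cannot give a p below 0.1.

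**Figure D1:**
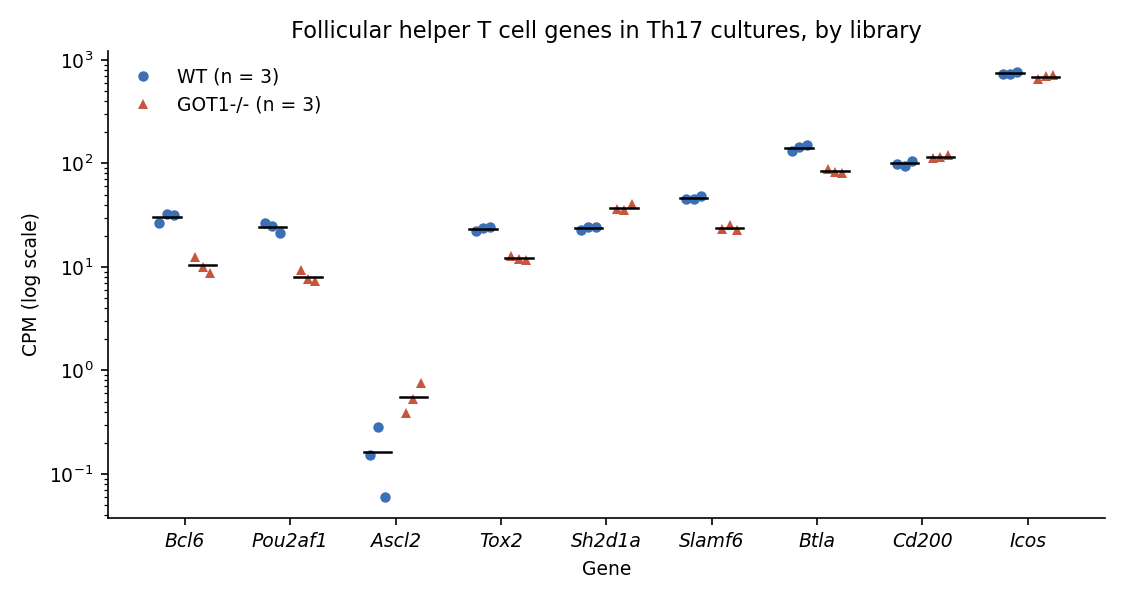
Level of each of the 9 genes in normalised read count (CPM, log axis) in the 3 WT libraries (circles) and the 3 GOT1-/- libraries (triangles), with black lines at the group means. The points of the genotypes do not overlap for any gene, and those of Icos (655 to 763 CPM) and Cd200 (95.1 to 120 CPM) lie closest together.

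The libraries held between 16463752 and 22541410 counts. A level of 3 counts, taken as the highest level that a 0 leaves possible, equals 0.133 to 0.182 CPM of these raw totals, for counting error only. All other CPM here are counts per 1000000 reads after TMM scaling of the library sizes. Got1 itself averaged 168 ± 4.59 CPM in WT, against 16.2 ± 1.25 CPM in the deleted cells, which follows the labels. The Th17 cytokine gene Il17f (1075 ± 52.8 CPM in WT, against 1012 ± 50.2 CPM without GOT1, mean ± SD of 3 libraries) was expressed in both genotypes. Fold changes of all protein-coding genes followed the deposited gene length (Spearman's rho -0.40 across 11526 genes, which are not independent replicates), so the 8 tested members are also given after corrections for length and for length and GC content. In bulk RNA, fewer cells that express a gene and less RNA per cell cannot be told apart.

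Bcl6 (ENSMUSG00000022508, minus strand of chromosome 16, from 23965052 to 23988852 in GRCm38) received 523, 697 and 524 reads in the WT libraries, in the order of their replicate numbers, against 260, 225 and 150 in the GOT1-/- libraries. Normalised, these are 26.4, 32.7 and 31.7 CPM in WT, against 12.6, 9.98 and 8.76 CPM in GOT1-/- cells. All GOT1-/- libraries lay far below all WT libraries, and the lowest WT library was replicate 1. The mean fell 2.90-fold (log2 fold change -1.53 with an SE of 0.12, adjusted p = 1.21e-07 by edgeR), and only 63 of 12873 genes had a lower log2 fold change. The decrease was -1.44 on the log2 scale after the correction for length and -1.48 after that for length and GC. Bcl6 overlaps Gm37419 on the opposite strand, which had at most 7 counts in any library.

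Pou2af1 (ENSMUSG00000032053, chromosome 9, 51213708 to 51240080, plus strand) encodes the coactivator OCA-B, which joins the octamer-binding factors OCT1 and OCT2 on DNA and is needed for germinal centres. It was at 26.5, 24.6 and 21.1 CPM in WT and at 9.27, 7.59 and 7.30 CPM in GOT1-/- replicates 1 to 3. The 2.99-fold decrease (log2 fold change -1.58 with an SE of 0.12, adjusted p = 6.18e-08 by edgeR) was the largest among the members. It was -1.72 after the correction for length and -1.67 after that for length and GC. Every GOT1-/- library lay well below every WT library, as for Bcl6.

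The start regions of both genes are shown because these were the members with the largest decreases. They are RefSeq windows on GRCm38.p6 from 250 bases before to 50 bases after an annotated start, written 5′ to 3′ on the gene's strand. The first Bcl6 window is chr16:23988803-23989102, at the 5′ end of the gene, and the second is chr16:23981234-23981533, inside the gene, both on the minus strand. The Pou2af1 window is chr9:51213440-51213739, on the plus strand. Capitals mark TTCNNNGAA in the Bcl6 windows, the core letters of sites read by BCL6 and by STAT factors, and CANNTG in the Pou2af1 window, the E-box read by basic helix-loop-helix factors such as ASCL2. Both motifs read the same on the opposite strand.
Bcl6 first start: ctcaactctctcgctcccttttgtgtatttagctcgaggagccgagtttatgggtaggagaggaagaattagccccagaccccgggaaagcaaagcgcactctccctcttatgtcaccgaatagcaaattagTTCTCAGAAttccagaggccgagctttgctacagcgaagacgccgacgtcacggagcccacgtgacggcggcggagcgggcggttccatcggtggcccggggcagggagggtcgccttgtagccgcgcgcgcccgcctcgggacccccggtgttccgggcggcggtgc
Bcl6 second start: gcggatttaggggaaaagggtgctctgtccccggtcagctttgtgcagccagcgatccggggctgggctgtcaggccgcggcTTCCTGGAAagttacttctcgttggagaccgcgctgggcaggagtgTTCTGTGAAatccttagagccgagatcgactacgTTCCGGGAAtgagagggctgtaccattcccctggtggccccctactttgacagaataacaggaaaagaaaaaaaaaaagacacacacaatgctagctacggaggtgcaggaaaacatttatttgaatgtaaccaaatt
Pou2af1: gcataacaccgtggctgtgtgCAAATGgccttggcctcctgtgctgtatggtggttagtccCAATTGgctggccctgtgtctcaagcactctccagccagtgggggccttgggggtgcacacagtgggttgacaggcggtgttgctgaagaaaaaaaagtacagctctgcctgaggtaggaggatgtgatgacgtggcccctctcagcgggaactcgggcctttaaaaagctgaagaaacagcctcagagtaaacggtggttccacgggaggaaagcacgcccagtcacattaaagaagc
TTCNNNGAA occurred at 1 place in the first Bcl6 window, from position -118 relative to the start, and at 3 places in the second, the earliest from -168. It occurred in 8.30% of all 32851 windows of this length and in no other window of the members. BCL6 is known in B cells to bind and repress its own gene. CANNTG occurred in 72.3% of all windows. The octamer ATGCAAAT, read by the partners of OCA-B, occurred in 1.74% of all windows on either strand and in none of the 12 windows of the 7 members that the table holds. Such matches describe letters, not bound sites. Sh2d1a and Icos had no entry.

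Tox2 (ENSMUSG00000074607, chromosome 2, 163203125 to 163324170, plus strand) encodes a high mobility group box factor that acts with BCL6 in Tfh cells. It was at 22.4, 23.7 and 24.2 CPM in WT and at 12.8, 12.0 and 11.6 CPM in GOT1-/- libraries. Replicates of each genotype were within 2 CPM of each other, and the groups were far apart. Tox2 fell 1.93-fold (log2 fold change -0.95 with an SE of 0.10, adjusted p = 1.16e-06 by edgeR). The decrease was -1.04 after the correction for length and -1.12 after that for length and GC. The other TOX genes did not pass the test: Tox and Tox4 were not called, and Tox3 was not tested, with at most 0.101 CPM.

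Ascl2 (ENSMUSG00000009248, chromosome 7, 142966829 to 142969264, minus strand), a basic helix-loop-helix factor that starts CXCR5 expression in Tfh cells, was close to the detection limit. It had 3, 6 and 1 counts in WT and 8, 12 and 13 counts in GOT1-/- replicates 1 to 3. All GOT1-/- values lay above the WT values, but the gene was removed by the filter on low counts. The summed counts of 10 and 33 gave a ratio of 3.15 per library size, with an exact 95% interval of 1.52 to 7.17 for counting error only. An exact two-sided permutation test on CPM gave p = 0.1, the smallest possible. Without a filter it was called higher (log2 fold change 1.66, adjusted p = 0.0474 by edgeR), where 12.6% of 23411 genes were called higher and 11.4% lower. With the filter, the gene was tested when any of 4 libraries was left out. It was called higher without WT replicate 2 (2.26, adjusted p = 0.023) or GOT1-/- replicate 1 (1.84, adjusted p = 0.0211), and not without WT replicate 1 (adjusted p = 0.0794) or WT replicate 3 (0.0949). No WT library reached the minimum count of 10, so in these fits the gene passed the filter only through GOT1-/- libraries. The calls among these fits therefore give no support of their own for an increase.

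Among the signalling genes, Sh2d1a and Slamf6 moved in opposite directions. Sh2d1a (ENSMUSG00000005696, chromosome X, 42502453 to 42529330, plus strand), which encodes SAP, was at 22.6, 24.2 and 24.1 CPM in WT and at 36.4, 35.3 and 40.3 CPM in GOT1-/- libraries. It rose 1.58-fold (log2 fold change 0.66 with an SE of 0.09, adjusted p = 1.54e-05 by edgeR), and by 0.70 on the log2 scale after the correction for length and 0.86 after that for length and GC. It was the member with the lowest GC content, 36.9% of its longest transcript.

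Slamf6 (ENSMUSG00000015314, chromosome 1, 171917515 to 171953170, plus strand), which encodes a SLAM receptor whose cytoplasmic tail binds SAP, was at 45.4, 45.2 and 48.2 CPM in WT and at 23.4, 25.6 and 22.5 CPM in GOT1-/- libraries. It fell 1.94-fold (log2 fold change -0.95 with an SE of 0.08, adjusted p = 2.98e-07 by edgeR). Slamf6 is the longest member in the deposited table, at 10832 bp, and its decrease was smaller after the corrections, -0.72 for length and -0.66 for length and GC. The antisense gene Gm37065 overlaps it with 17 to 50 counts, against 385 to 963 counts of Slamf6. The kit is not described as strand-specific, so some reads may be shared.

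The ratio of Sh2d1a to Slamf6 in CPM per kb of deposited gene length needs no scaling between libraries. It was 0.979, 1.05 and 0.981 in the WT libraries, against 3.07, 2.71 and 3.53 in the GOT1-/- libraries. Transcripts of the adaptor and the receptor were thus about equal per length in WT, and the adaptor exceeded the receptor in each GOT1-/- library. The mean ratio was 1.00 ± 0.0415 in WT and 3.10 ± 0.407 in GOT1-/- cells (SD, n = 3, exact two-sided permutation p = 0.1, the smallest possible). The ratios shown here were chosen with the values of the genes known.

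**Figure D2:**
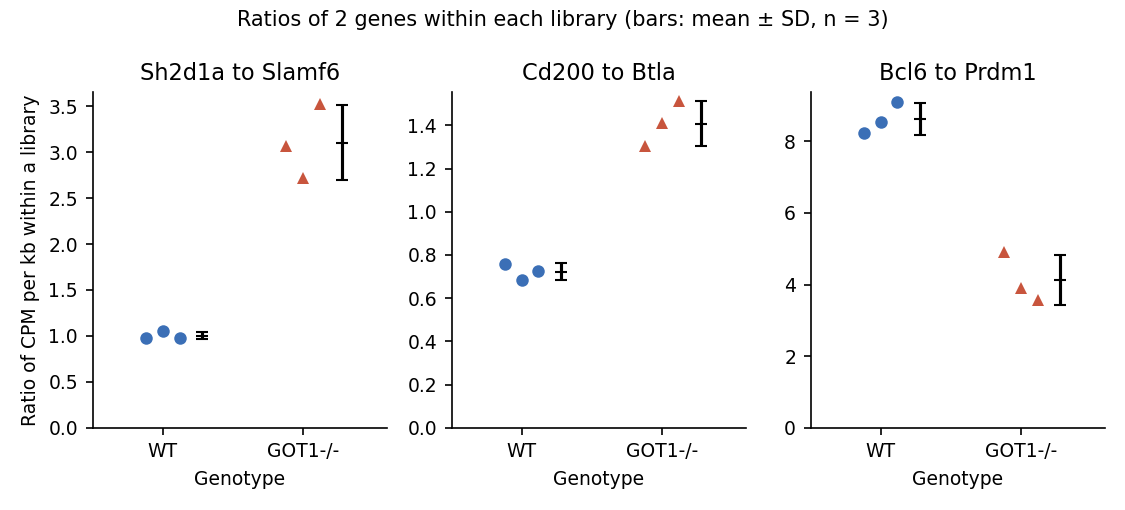
Ratio of CPM per kb of 2 genes within each library, for Sh2d1a to Slamf6, Cd200 to Btla and Bcl6 to Prdm1, with WT as circles, GOT1-/- as triangles and bars for the mean ± SD of 3 libraries. The adaptor to receptor ratio goes from 1.00 to 3.10, Cd200 to Btla from 0.722 to 1.41, and Bcl6 to Prdm1 from 8.61 to 4.13.

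Slamf6 lies in the SLAM gene cluster, and its neighbours differed in direction. Within 200 kb, 8 of 9 protein-coding genes were tested. Slamf1, a self-binding SLAM receptor that also binds SAP, rose from 91.8 ± 7.46 CPM to 129 ± 1.50 CPM (adjusted p = 5.65e-05 by edgeR, 0.49 on the log2 scale), and Cd84 fell from 60.3 ± 4.75 to 41.7 ± 2.82 CPM (-0.53, adjusted p = 9.21e-05). Among 10 genes of SLAM and SAP signalling other than members, Slamf1 and Cd84 included, 7 were tested, of which 4 fell and 2 rose. Ly9 (-0.35) and Prkcq (-0.70), which encodes protein kinase C theta, fell in log2 fold change. Without WT replicate 1, WT replicate 2 or GOT1-/- replicate 3, 3 of these genes were called lower, and after the correction for length 1 was called higher. Fyn, the gene of the kinase that SAP recruits (-0.21, adjusted p = 0.0178 by edgeR), was the other gene that fell, and Cd48 (0.35, adjusted p = 0.00827) the other that rose. Fyn and Cd48 were named after their values were seen. The related adaptor genes Sh2d1b1 and Sh2d1b2 were not tested, with at most 0.469 CPM for any untested gene of this list.

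The genes of the surface proteins BTLA and CD200 are separated by 124464 bases on chromosome 16, on opposite strands, and they also went in opposite directions. Btla (ENSMUSG00000052013, 45224315 to 45257670, plus strand) encodes a receptor for HVEM that recruits tyrosine phosphatases. It was at 133, 142 and 150 CPM in WT and at 88.5, 82.7 and 81.0 CPM in GOT1-/- libraries, which is 1.69-fold lower (log2 fold change -0.75 with an SE of 0.07, adjusted p = 7.31e-07 by edgeR). No library of either genotype came near the other group, and the decrease was -0.84 after the correction for length and -0.69 after that for length and GC.

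Cd200 (ENSMUSG00000022661, 45382135 to 45409053, minus strand) encodes a ligand of the inhibitory receptor CD200R on myeloid cells. It was at 98.7, 95.1 and 106 CPM in WT and at 113, 114 and 120 CPM in GOT1-/- libraries, which is 1.15-fold higher (log2 fold change 0.21 with an SE of 0.07, adjusted p = 0.0249 by edgeR). The WT libraries ran from 95.1 to 106 CPM, and the lowest GOT1-/- library was not far above them, at 113 CPM. The call was lost after the correction for length (adjusted p = 0.177) and without WT replicate 1 (0.0976), WT replicate 2 (0.131) or GOT1-/- replicate 2 (0.0853), and it was kept after that for length and GC (0.0047).

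The ratio of Cd200 to Btla in CPM per kb was 0.761, 0.683 and 0.724 in WT, against 1.30, 1.41 and 1.51 without GOT1, so Btla exceeded Cd200 in every WT library and Cd200 exceeded Btla in every GOT1-/- library. The exact two-sided permutation p was 0.1, the smallest possible. Atg3, which lies within 200 kb of both, was at 54.9 ± 3.25 and 51.3 ± 4.06 CPM and was not called (log2 fold change -0.10, adjusted p = 0.357 by edgeR). It was called lower after the correction for length (adjusted p = 0.0429). The start windows of both genes are shown as those of neighbours with different directions, at chr16:45224087-45224386 on the plus strand for Btla and chr16:45409004-45409303 on the minus strand for Cd200, with CANNTG in capitals, which each holds at 2 places.
Btla: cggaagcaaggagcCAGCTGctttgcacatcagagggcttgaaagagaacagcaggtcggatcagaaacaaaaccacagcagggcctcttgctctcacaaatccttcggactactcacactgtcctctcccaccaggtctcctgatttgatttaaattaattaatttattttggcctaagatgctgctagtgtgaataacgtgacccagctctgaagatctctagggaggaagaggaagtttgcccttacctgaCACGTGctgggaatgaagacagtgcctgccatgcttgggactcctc
Cd200: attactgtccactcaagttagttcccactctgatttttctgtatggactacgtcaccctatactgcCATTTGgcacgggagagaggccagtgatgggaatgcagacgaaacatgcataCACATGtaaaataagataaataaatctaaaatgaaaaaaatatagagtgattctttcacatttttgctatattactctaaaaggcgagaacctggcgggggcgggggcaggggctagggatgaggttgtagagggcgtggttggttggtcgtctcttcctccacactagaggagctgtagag

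Icos (ENSMUSG00000026009, chromosome 1, 60977927 to 61000320, plus strand) was the most abundant member per length in both genotypes. It was at 724, 728 and 763 CPM in WT and at 655, 695 and 709 CPM in GOT1-/- libraries. The groups did not overlap, but the highest GOT1-/- library was only slightly below the lowest WT library, and the gene was not called (log2 fold change -0.11 with an SE of 0.06, adjusted p = 0.201 by edgeR). It was called lower after the correction for length (-0.19, adjusted p = 0.0151), where 19.6% of genes were called lower, and not after that for length and GC (-0.07, adjusted p = 0.292). Gm37039, on the same strand, overlaps Icos with 20 to 90 counts, against 12133 to 15670 of Icos. The neighbouring Ctla4, an inhibitory relative in the CD28 family, was at 500 ± 43.4 and 454 ± 11.7 CPM and was not called (adjusted p = 0.126 by edgeR). Ctla4 was called lower after the correction for length (adjusted p = 0.00225) and after that for length and GC (0.0334).

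**Figure D3:**
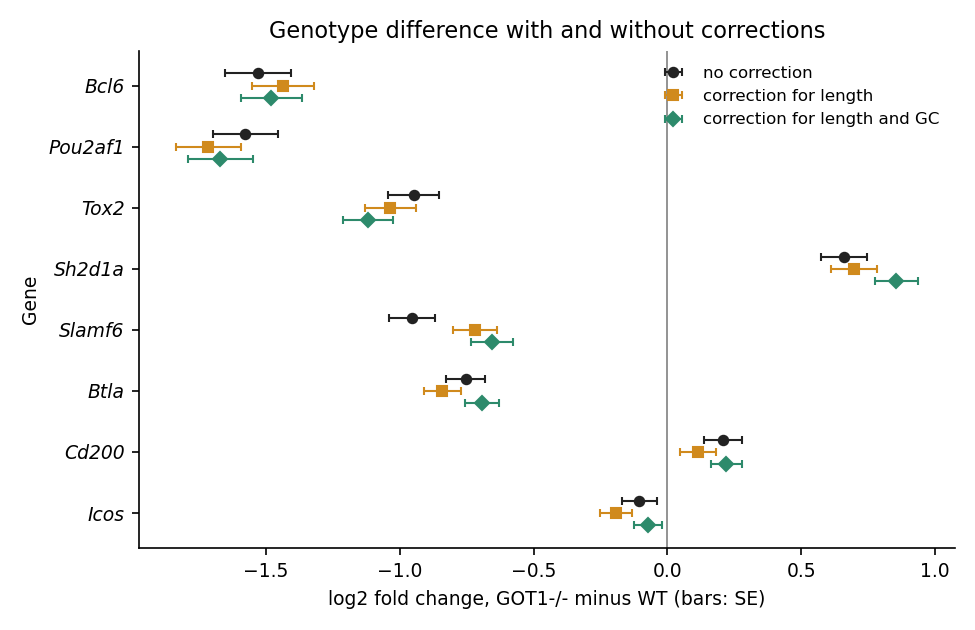
Log2 fold change of GOT1-/- against WT for the 8 tested members, with SE bars, without a correction (circles), after a correction for gene length (squares) and after one for length and GC content (diamonds). Bcl6, Pou2af1, Tox2, Slamf6 and Btla lie below 0 and Sh2d1a above 0 under all of these, whereas Cd200 (0.11 to 0.22) and Icos (-0.19 to -0.07) stay near 0.

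The order of the members by level per length differed between genotypes. In WT, in CPM per kb, Icos (215 ± 6.29) was followed by Btla (41.7 ± 2.56), Cd200 (30.1 ± 1.73), Pou2af1 (9.44 ± 1.07), Tox2 (6.89 ± 0.261), Bcl6 (4.52 ± 0.501), Sh2d1a (4.29 ± 0.159), Slamf6 (4.27 ± 0.157) and Ascl2 (0.101 ± 0.0685). The ranges of Bcl6 and Sh2d1a overlapped, as did those of Sh2d1a and Slamf6. In GOT1-/- cells Icos (200 ± 8.14) was followed by Cd200 (34.8 ± 1.11), Btla (24.8 ± 1.16), Sh2d1a (6.78 ± 0.478), Tox2 (3.56 ± 0.183), Pou2af1 (3.16 ± 0.417), Slamf6 (2.20 ± 0.148), Bcl6 (1.56 ± 0.289) and Ascl2 (0.345 ± 0.116) in CPM per kb. There only Tox2 and Pou2af1 overlapped as neighbours in the order. Sh2d1a was thus above Bcl6, Tox2 and Pou2af1 in GOT1-/- cells, and it was below Tox2 and Pou2af1 in WT.

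Genes outside the 9 members that mark Tfh cells did not move as a group. Of 10 such genes 9 were tested, of which 1 fell, 2 rose and 6 were not called. The chemokine receptor gene Cxcr5, which brings Tfh cells into the follicle, fell from 5.06 ± 0.464 to 3.14 ± 0.705 CPM (adjusted p = 0.00759 by edgeR, -0.68 on the log2 scale). Tnfsf8, the gene of CD30 ligand, rose from 43.5 ± 0.842 to 69.6 ± 5.10 CPM (0.68, adjusted p = 4.38e-06). Izumo1r, the gene of folate receptor 4, was called higher (0.22, adjusted p = 0.0171). That call was lost after the correction for length and without WT replicate 1 (adjusted p = 0.0599), WT replicate 2 (0.0913), GOT1-/- replicate 2 (0.0523) or GOT1-/- replicate 3 (0.0582), so that 1 gene rose, and the sign turned after the correction for length and GC (-0.014). The cytokine gene Il21 was at 384 ± 52.8 and 363 ± 8.45 CPM (adjusted p = 0.457), and Pdcd1, the gene of PD-1, was at 22.8 ± 1.54 and 23.6 ± 3.09 CPM (adjusted p = 0.757). The sign of each turned under some settings (Il21 0.018 without WT replicate 3, Pdcd1 -0.064 without GOT1-/- replicate 3). Il21 and Pdcd1 were chosen after their values were seen. After either correction 2 genes of this list were lower.

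Among genes that induce Bcl6 or the Tfh programme, more were called lower than higher. Of 14 tested, 8 fell and 1 rose, with a median log2 fold change of -0.22, against 0.01 for all genes and a background of 21.0% called lower. Without GOT1-/- replicate 2, 6 of them fell, and without GOT1-/- replicate 1, 10 fell. Maf, a factor of IL-21 and IL-10 production, fell from 457 ± 40.8 to 202 ± 14.9 CPM, and Tcf7, whose product TCF1 acts at Bcl6, from 873 ± 17.3 to 429 ± 26.3 CPM. Stat4 (-0.88) and Il6st (-0.73), the signalling chain of the IL-6 receptor, also fell in log2 fold change. Notch2, the gene that rose (0.33, adjusted p = 0.00849) and that was named after its value was seen, was not called without WT replicate 2, where none rose.

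Genes that oppose Bcl6 were likewise called lower more often than higher. Of 12 tested, 8 fell, none rose and 4 were not called, against a background of 21.0% called lower. The median log2 fold change was -0.39. Without WT replicate 2, 5 fell, and 1 rose without WT replicate 1, by limma-voom or with upper-quartile scaling. Of all genes, limma-voom called 21.2% lower and 22.9% higher, and upper-quartile scaling 18.9% and 25.2%. Among those not called, Il2ra was at 2857 ± 80.1 and 2853 ± 23.5 CPM, whereas Tbx21 (1.01 ± 0.272 and 1.70 ± 0.223 CPM) and Il2rb (1067 ± 8.97 and 1137 ± 32.4 CPM) lay higher in all GOT1-/- libraries. Il2ra, Tbx21 and Il2rb were named after their values were seen. Foxp1 fell from 103 ± 3.38 to 59.6 ± 6.05 CPM, Foxo1 from 310 ± 7.62 to 219 ± 16.9 CPM and Stat5a from 492 ± 18.0 to 350 ± 25.8 CPM. These encode factors that restrain Tfh differentiation. Klf2, the gene of a trafficking regulator, was at 81.5, 77.9 and 51.8 CPM in WT and at 37.8, 38.2 and 29.9 CPM in GOT1-/- libraries (adjusted p = 2.02e-05 by edgeR), with WT replicate 3 below the other WT libraries.

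Prdm1, the antagonist of Bcl6, averaged 2.92 ± 0.257 CPM in WT, against 2.10 ± 0.0474 CPM without GOT1, and missed the threshold (log2 fold change -0.48, adjusted p = 0.0759 by edgeR; 0.0469 with a stricter filter, range over all alternatives 0.0469 to 0.206). Prdm1 was chosen after its values were seen. The ratio of Bcl6 to Prdm1 in CPM per kb was 8.22, 8.54 and 9.09 in WT, against 4.92, 3.90 and 3.57 without GOT1, a 2.09-fold lower mean. Bcl6 transcripts exceeded those of Prdm1 in every library of both genotypes. The exact two-sided permutation p was 0.1, the smallest possible.

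None of the genes known to be repressed by BCL6 in Tfh cells was called higher. Of 10 tested, 8 fell, none rose and 2 were not called, against 21.0% of all genes called lower and 22.9% higher. The median log2 fold change was -0.43. Without WT replicate 2, 5 fell. Il7r, the gene of the interleukin 7 receptor alpha chain, fell from 413 ± 33.0 to 156 ± 14.9 CPM. The egress receptor gene S1pr1 fell from 231 ± 8.93 to 123 ± 9.13 CPM and Gpr183, whose product guides cells within lymphoid tissue, from 70.3 ± 6.39 to 49.6 ± 1.22 CPM. This list shares Prdm1, Id2, Klf2 and Runx3 with the list of antagonists. On the same background, 9 of 12 genes of BCL6 corepressor complexes fell and 2 rose. After the correction for length, 7 of the 12 fell and 3 rose. Tbl1xr1 (-0.66), Hdac4 (-0.70), Tbl1x (-0.52) and Ncor1 (-0.60) fell in log2 fold change, while Hdac3 (0.34) and Ctbp1 (0.22), named after their values were seen, rose. Of the 12, 1 rose after the correction for length and GC and without WT replicate 1, WT replicate 3 or GOT1-/- replicate 2.

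**Figure D4:**
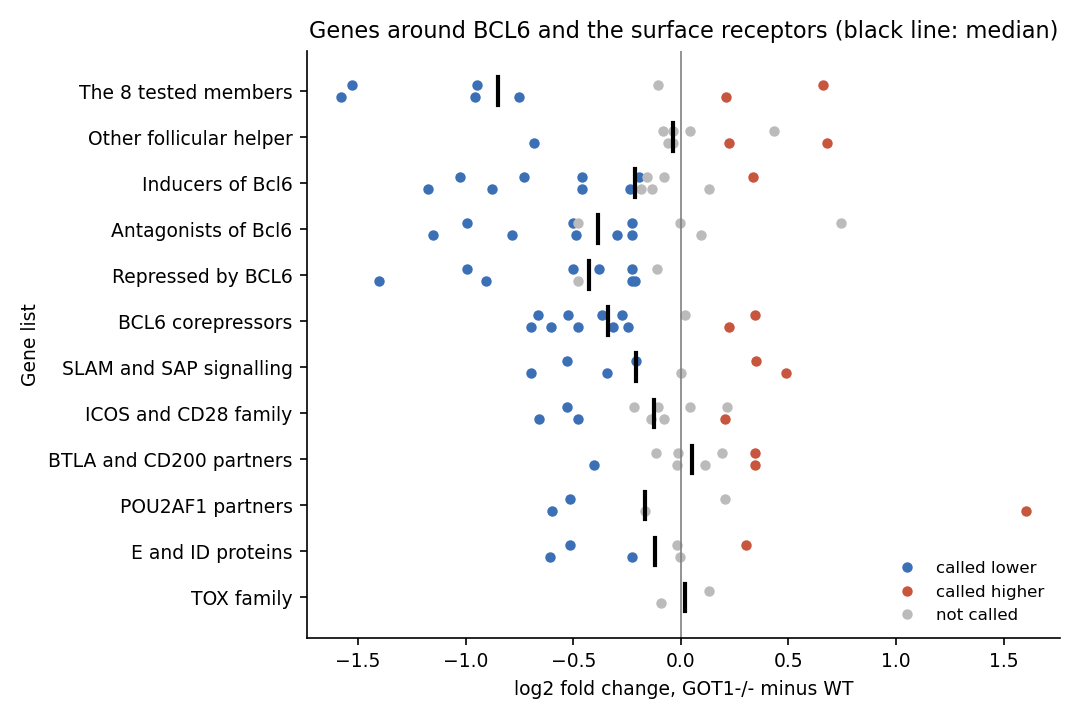
Log2 fold change of GOT1-/- against WT for the tested members and for each list of related genes, 1 point per gene, in blue where called lower, red where called higher and grey where not called, with black lines at the medians. The median is -0.85 for the members, -0.43 for genes repressed by BCL6 and -0.03 for other Tfh genes.

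Partners of the receptors and factors were called in both directions, where 21.0% of all genes were called lower and 22.9% higher. Such small counts are not read as a result about the partners. Of 10 genes of the ICOS pathway and CD28 family 3 fell and 1 rose. Cd28 fell from 820 ± 42.4 to 519 ± 20.2 CPM (adjusted p = 1.12e-06 by edgeR, -0.66 on the log2 scale). Rc3h1 (-0.48) and Rc3h2 (-0.53), whose Roquin proteins promote decay of Icos mRNA, fell too, but Rc3h2 was not called after the correction for length (adjusted p = 0.339) and neither was called after that for length and GC (Rc3h1 0.0772, Rc3h2 0.709). Pik3cd (0.20, adjusted p = 0.0482) was not called by DESeq2 or without WT replicate 2 (0.151), WT replicate 3 (0.226), GOT1-/- replicate 1 (0.112) or GOT1-/- replicate 2 (0.186), so that none rose.

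Of 9 partners of BTLA and CD200 8 were tested, of which 1 fell and 2 rose. Tnfrsf14, the gene of the BTLA ligand HVEM, fell (-0.40, adjusted p = 0.0231 by edgeR), a call lost without WT replicate 2 (0.0585), WT replicate 3 (0.0772), GOT1-/- replicate 2 (0.0588) or GOT1-/- replicate 3 (0.0895). Dok2 (0.35) and Dok1 (0.35), adaptors of the CD200 receptor, rose in log2 fold change. Neither was called after the correction for length and GC (0.0997 and 0.445), after which 3 genes of the list were lower and 1 higher.

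Of 5 partners of POU2AF1 2 fell and 1 rose. Pou2f2, the gene of OCT2, fell from 25.7 ± 1.54 to 16.9 ± 3.13 CPM and Pou2f1, the gene of OCT1, from 40.9 ± 4.78 to 28.5 ± 7.43 CPM. Pou2f1 was not called after the correction for length (adjusted p = 0.156) or by DESeq2 (0.0573). Spib had 10, 2 and 1 counts in WT and 15, 15 and 12 in GOT1-/- libraries, so its increase (adjusted p = 0.0274 by edgeR) rested on few reads. Only in GOT1-/- cells did all libraries reach the minimum count of 10. The gene thus passed the filter through the group where it was high. It was not called without WT replicate 2 (0.134), WT replicate 3 (0.112), GOT1-/- replicate 1 (0.0533) or GOT1-/- replicate 2 (0.0684), or by DESeq2.

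Of 6 genes of E proteins, which pair with ASCL2, and of their ID inhibitors, 3 fell and 1 rose. Tcf12 (-0.51), Tcf4 (-0.61) and Id2 (-0.23) fell and Tcf3 (0.31) rose in log2 fold change. Tcf4 was not called after the correction for length (adjusted p = 0.178), Tcf12 (0.065) and Tcf3 (0.137) were not after that for length and GC, and Id2 was not without WT replicate 2 (0.115) or GOT1-/- replicate 2 (0.14).

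By the root mean square difference in log2(CPM + 0.5), centred on each gene's mean over the 6 libraries, the protein-coding genes nearest to Bcl6 among 9408 were St8sia6 (0.10), Pcdh7 (0.11), Il7r (0.11), Ahr (0.12) and Rnf125 (0.12). All of these were lower in GOT1-/- cells. That direction was fixed by the choice, which used the same 6 libraries in which Bcl6 was lower. St8sia6, for example, went from 12.5 ± 0.784 to 4.00 ± 0.971 CPM.

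Several members are also B cell genes, so markers of other cells were examined. Of 12 B cell markers 8 were below 1 CPM in all libraries, among them Ms4a1 (at most 0.145 CPM). All 12 summed to 111 to 120 CPM in WT and 52.8 to 58.7 CPM in GOT1-/- libraries. Of the 5 tested, 1 fell and 4 were not called. Ighm, singled out after its values were seen, fell from 103 ± 5.70 to 47.0 ± 3.11 CPM (adjusted p = 2.03e-08 by edgeR, -1.14 on the log2 scale). The other 11 summed to 9.85 to 11.7 CPM in WT and 8.65 to 10.5 CPM in GOT1-/- libraries. Of 10 myeloid and dendritic cell markers 9 were tested, of which 5 rose and 1 fell. They summed to 26.7 to 28.8 CPM in WT and 32.0 to 37.3 CPM in GOT1-/- libraries. Lyz2 rose from 4.02 ± 0.770 to 12.6 ± 1.69 CPM. Cd68, which made up most of the WT sum, was the 1 that fell, from 19.6 ± 2.08 to 11.1 ± 1.18 CPM. Lyz2 and Cd68 were singled out after their values were seen. Of 7 markers of NK, CD8 and gamma-delta T cells 5 were tested, of which 1 fell and 2 rose, with a median log2 fold change of 0.73. They summed to 70.5 to 74.7 CPM in WT and 58.2 to 62.0 CPM in GOT1-/- libraries. Klrd1, which made up most of that sum, fell from 54.1 ± 2.34 to 36.8 ± 1.98 CPM, while Trdc rose from 3.73 ± 0.659 to 6.78 ± 0.800 CPM and Tcrg-C1 from 0.939 ± 0.518 to 2.59 ± 0.604 CPM. Klrd1, Trdc and Tcrg-C1 were singled out after their values were seen. The part of these cells in the changes of the members was not tested. Of 6 CD4 T cell markers 3 fell, 1 rose and 2 were not called, and they summed to 2923 to 3022 CPM in WT and 2380 to 2535 CPM in GOT1-/- libraries. Cd3d, the 1 that rose, went from 250 ± 10.1 to 318 ± 22.1 CPM and was named after its value was seen, whereas Cd28 fell, as given above.

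The neighbourhoods of the other members held few expressed genes. None of the 3 protein-coding neighbours of Bcl6, the 6 of Pou2af1 or the 2 of Sh2d1a within 200 kb had enough counts to be tested. Near Ascl2, 3 of 6 were tested and Tssc4 rose from 12.4 ± 2.78 to 22.0 ± 1.47 CPM (adjusted p = 7.49e-05 by edgeR, 0.83 on the log2 scale). Near Tox2, 4 of 10 were tested, and Mybl2, a cell cycle factor gene, rose from 24.9 ± 2.66 to 38.9 ± 3.56 CPM (0.64, adjusted p = 5.96e-05), opposite to Tox2.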

How the data were processed

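Poly-A RNA was sequenced in 3 WT and 3 GOT1-/- libraries of Th17 cells. The deposited values are raw counts, whole numbers of reads for each gene. Per the submitters' processing notes, STAR and GRCm38 were used. The sources used here do not give the read counter, its strand setting or its annotation. The gene length in bp comes from the deposited table and is not the genomic span. GC content came from the longest transcript in GENCODE mouse release M21, and promoter windows from RefSeq. Nothing in the labels ties the replicates to different animals. The p-values therefore reflect the spread among these libraries alone, which may be technical.

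The genotypes were tested against each other in edgeR 4.0.16 under R 4.3.3 (TMM, filterByExpr with a minimum count of 10 and a minimum total of 15, quasi-likelihood F-test, two-sided, genotype as the only term). P-values were adjusted by Benjamini and Hochberg over 12873 genes. The members and lists were chosen with earlier results of these data known. Named genes were Got1, the members, up to 4 called genes per list, taken by adjusted p, neighbours within 200 kb, the 5 genes nearest to Bcl6, and any said to be chosen after their values were seen. Corrections for length and GC content removed each library's smooth trend (robust regression, natural splines with 5 degrees of freedom, log2 CPM with a prior count of 2) through offsets. Other alternatives were DESeq2 1.42.0, limma-voom (limma 3.58.1), other scalings and filters, a replicate block, an adjusted p under 0.01 and each library left out in turn. Libraries of the same genotype varied beyond counting noise (chi-square divided by its degrees of freedom, 3.76 to 13.7). Of the symbols, 27 that had been turned into dates were restored from gene IDs.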

Additional observations from a re-analysis of the deposited data

How the results depend on the processing

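Over 16 alternatives, Bcl6 (log2 fold change -1.68 to -1.43), Pou2af1 (-1.72 to -1.51), Tox2 (-1.12 to -0.92), Slamf6 (-1.02 to -0.66), Btla (-0.84 to -0.69) and Sh2d1a (0.60 to 0.86) kept their direction and call. Members called lower numbered 5, or 6 after the correction for length with or without a replicate block. The 2 members called higher became 1 (Sh2d1a) after the correction for length, with or without a block, and at an adjusted p under 0.01, and 1 to 3 with each library left out. Genes called over the whole table numbered 5643, and 4426 to 5718 with each library left out. The replicate block gave 5792 genes and the same counts of 5 and 2 members. The replicate numbers were not taken to pair the libraries, since nothing in the labels ties a number to a shared animal, litter or day. Same-numbered libraries had correlations of 0.059, -0.026 and 0.033 between their deviations from the group means. Those of differently numbered libraries ran from -0.103 to 0.067. With so few libraries these values cannot decide whether the numbers mark pairs. Of 877 values of 55 other genes followed under these alternatives, 820 kept their direction and call, 41 lost and 9 gained a call, and 7 turned in sign. The 7 were Izumo1r (-0.014) and Il21 (0.082) after the correction for length and GC, Il21 without WT replicate 3 (0.018, with a leave-one-out range of -0.18 to 0.018), Pdcd1 after the correction for length (-0.13, or -0.14 with the block) and for length and GC (-0.19), and Pdcd1 without GOT1-/- replicate 3 (-0.064, with a leave-one-out range of -0.064 to 0.11). The cause of these turns was not tested. Depth limits Ascl2 and Spib, which had at most 13 and 15 counts in any library.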
